A study of Caenorhabditis elegans with 24 samples.

Results

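The return of the HC445 strain of the nematode Caenorhabditis elegans from 25 °C to 20 °C was followed in 6 of 24 arrays. They were the 3 arrays of generation 3, from mothers raised at 20 °C with 25 °C grandparents, and the 3 arrays of generation 2, from mothers raised at 25 °C. The arrays were chosen by their labels and paired by replicate number, so no measured value entered the choice. Each array measured amplified mRNA of 1 separately collected sample of 50 embryos at the 4-cell stage. HC445 is labelled as carrying the qt9 allele of sid-1 and as suspected of lacking haf-6, and all of its samples share these alleles, including those of the line kept at 20 °C. The wild-type strain N2 was treated in the same way. Every worm was fed a sporulation-defective strain of Bacillus subtilis, and the cultures had been held at 20 °C for several generations beforehand. The 25 °C exposure covered the rearing of generation 2's mothers. The line kept at 20 °C gave 3 HC445 arrays in generation 2 and 3 in generation 3, and the N2 return was measured on another 6 arrays. The samples were not stated to come from separate cultures, so p-values here reflect sample-to-sample spread, which may be technical.

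A 4-cell embryo of C. elegans carries mostly mRNA that its mother loaded into the egg, and transcription of its own genome has only begun. A difference between embryos whose mothers lived at different temperatures can therefore lie in the maternal store, in early embryonic transcripts or in the decay of either. The sid-1 gene encodes a channel that lets double-stranded RNA into cells and is needed for systemic RNA interference, and haf-6 encodes a half-molecule ABC transporter linked to RNA interference. In pooled embryos, fewer cells of a type and less RNA per cell cannot be told apart.

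Signals are given as log2 of the processed spot intensity minus the 75th percentile of the array, so a value of 0 is the level of a bright probe and most probes lie below it. The arrays held 15208 probes, 1 per gene, named by WormBase gene ID. The files do not pair these IDs with gene names, and the reference gene table at hand matched 0 of the 15208. Genes are therefore given by ID, no function is assigned to them, and sid-1, haf-6 and the markers of embryonic and adult cell types were not analysed here. On the 3 HC445 arrays of generation 2 after 25 °C, 12510, 11200 and 11423 probes were well above background, and on the 3 of generation 3 the numbers were 11929, 11026 and 12281. Over all 24 arrays the number lay between 9109 and 13075. Tests covered the 11637 probes that were well above background on all 3 arrays of at least 1 group. Replicate number was also scan day, and each scan day held 1 array of every group. The arrays of replicates 1 and 2 lay on different slides in each pair. Both arrays of replicate 3 lay on 1 slide together with the N2 arrays of the same replicate and line, and both carry a spike-in note, as did 6 of the 24 arrays. On the replicate 3 array of generation 2, 1976 probes were tied at the lowest processed signal, so its lowest values mark a floor.

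One generation after the return to 20 °C, 634 probes were higher and 432 were lower in HC445 embryos than in the embryos of the mothers reared at 25 °C. Together these were 1066 of 11637 probes, or 9.16% (limma with replicate number as a block, two-sided, Benjamini-Hochberg adjusted p under 0.05). The higher probes were 5.45% and the lower probes 3.71% of all probes tested. Without the replicate block the count was 615 (5.28%, 365 higher and 250 lower), and all 615 were among the 1066. With slide as a random block it was 1112, with slide as a fixed block, which leaves 3 residual degrees of freedom, 77 (43 higher and 34 lower), and without the 6 arrays that carry the note 499. Quantile normalization gave 1060 probes at 50.4% higher, against 59.5% higher in the scaling used here, and normexp background correction with quantile normalization gave 1018 at 47.4% higher. The median difference of all tested probes was 0.08 on the log2 scale, so the excess of higher probes depended on the scaling, whereas the total number hardly did.

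The probes that rose had a median fitted difference of 0.98 on the log2 scale, and their differences, which include probes near background in 1 group, ran from 0.26 to 4.72. At least 2-fold rises numbered 315 and at least 4-fold rises 91, and the other 319 were below 2-fold. The probes that fell had a median difference of -1.01, with sizes from 0.25 to 6.17, and 219 fell at least 2-fold and 60 at least 4-fold. Of the rising probes, 571 were well above background on all 6 arrays of the pair of groups, and of the falling probes 400 were. Gain or loss of a detectable signal was rare. Only 11 rising probes went from background on all 3 arrays of generation 2 to a signal on all 3 of generation 3, and 10 falling probes went the opposite way. The floor touched 14 of the rising probes on the replicate 3 array of generation 2 and none of the falling ones. No called probe was saturated on any of the 6 arrays.

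The size of the change depended on the level of the probe. When the 11637 probes were divided into 3 classes of 3879 by their mean over all 24 arrays, the rising probes of the low class numbered 93 with a median difference of 2.25. The middle class held 378 with a median of 1.09 and the high class 163 with a median of 0.45. The falling probes followed the same order, with 67, 282 and 83 probes and medians of -2.14, -1.03 and -0.48. Bright probes could thus pass the test with a small difference, and dim probes passed it only with a large one.

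**Figure D1:**
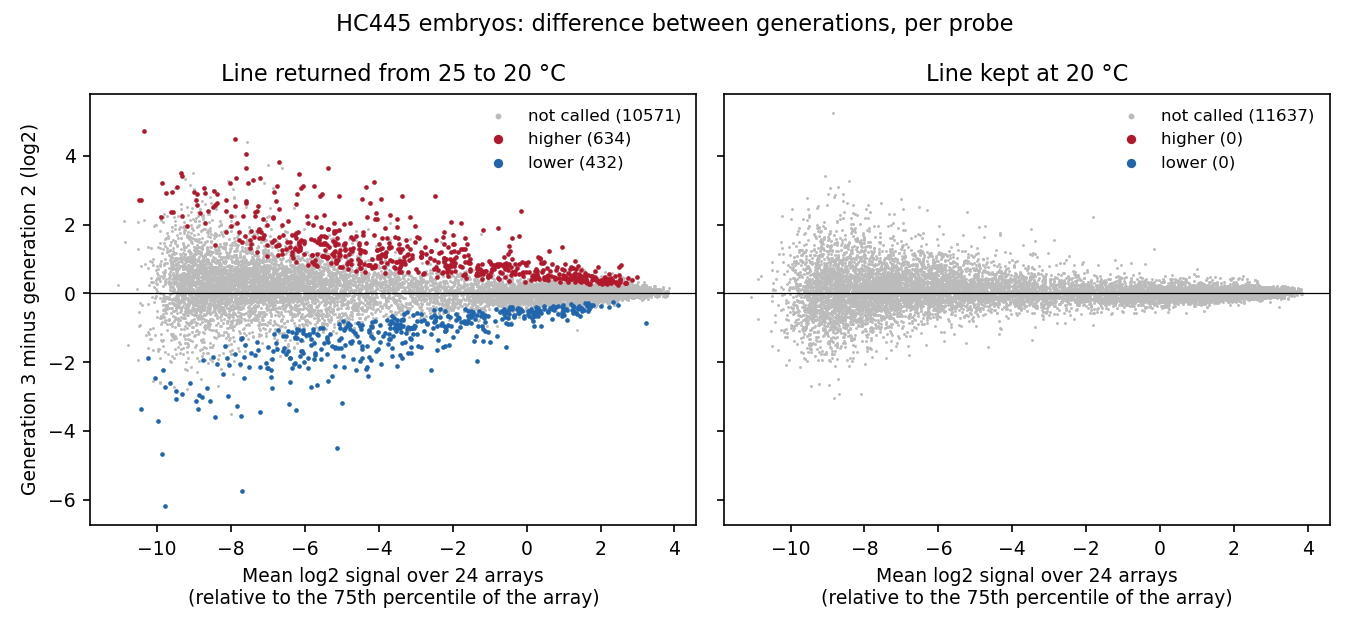
Each point is 1 of 11637 probes, with its mean log2 signal over the 24 arrays (scaled to the array's 75th percentile) on the horizontal axis and its fitted log2 difference, generation 3 minus generation 2, on the vertical axis. In the line returned from 25 °C (left) 634 probes were called higher (red) and 432 lower (blue), and in the line kept at 20 °C (right) 0 were called.

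The 3 pairs of arrays were also read one by one. Across all tested probes the median differences of pairs 1, 2 and 3 were 0.11, 0.12 and -0.00, and their standard deviations were 0.95, 0.92 and 0.76. At least 2-fold rises numbered 1543, 1336 and 860 in the 3 pairs and at least 2-fold falls 583, 898 and 680. Pair 1 thus had the largest excess of rises, and pair 3, which shared a slide, had the smallest excess and the narrowest spread. The correlation of the difference across probes was 0.28, 0.42 and 0.45 between the pairs of pairs, where probes are not independent replicates and share array and amplification. In the line kept at 20 °C, the same 3 correlations were -0.09, 0.27 and -0.14, so the highest of them was close to the lowest in the returned line. Pair 3 of the line kept at 20 °C also shared 1 slide. It had the largest excess of rises in that line, with 1100 rises and 329 falls of at least 2-fold. Whether a shared slide shaped these counts was not tested.

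The direction of the change was then read on each pair after its replicate had been left out of the fit in all groups. The filter on dim probes had used all arrays, so the left-out pair still took part in which probes were tested. When pair 1 was left out of the fit, 172 probes were called higher, and of the 171 with a value in pair 1, 166 were higher there with a median of 1.32, against 61.1% of all probes in that pair. Of 133 probes called lower, 131 were lower in pair 1 with a median of -1.20, against 38.9% of all probes. Pair 2, left out in turn, was higher for 261 of 270 probes with a median of 1.04, against 61.4% of all probes, and lower for 165 of 165 with a median of -1.17, against 38.6%. Pair 3, whose arrays shared a slide, was higher for 466 of 496 probes with a median of 0.70, against 49.9% of all probes, and lower for 203 of 205 with a median of -1.07, against 50.1%. Each left-out pair therefore had nearly all chosen probes on the side that the other pairs gave. The called numbers themselves fell to 305, 437 and 702 without replicates 1, 2 and 3, where the array of that replicate was dropped in each of the 8 groups.

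The same step between generations was measured in the HC445 line kept at 20 °C, where no temperature changed. There 0 of 11637 probes passed limma's test (0.0%), and the lowest adjusted p was 0.259. An unadjusted p under 0.05 was reached by 628 probes, where 581.85 are given by the threshold alone, against 2438 probes in the line returned from 25 °C. Without the replicate block the 20 °C line again had 0 called probes, with 336 at an unadjusted p under 0.05. Its differences were also smaller. At least 2-fold differences, called or not, numbered 703 (6.04% of probes) in the line kept at 20 °C and 1346 (11.6%) in the returned line. At least 4-fold differences numbered 67 and 245, and the standard deviations of the differences across probes were 0.48 and 0.67. The median spread between replicate arrays was similar in the 4 groups, with median standard deviations of 0.26 and 0.29 in generation 2 at 20 °C and 25 °C and 0.30 and 0.28 in generation 3.

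The difference between the 2 lines was tested directly. For 357 probes (3.07%) the change in the returned line differed from the change in the line kept at 20 °C, by limma's contrast of the differences with an adjusted p under 0.05, and these contrasts share no array. In 183 of them (1.57%) the contrast was positive, with a median of 1.18. Their median change was 1.02 after the return and -0.06 at constant 20 °C. In the other 174 (1.50%) the contrast was negative, with a median of -1.55, a median change of -1.23 after the return and 0.27 at constant 20 °C. These medians come from the arrays that chose the probes, so they describe the changes and test nothing. The standard error of this contrast had a median of 0.36, against 0.25 for the return alone. Without the replicate block 112 probes passed, of which 55 were positive and 57 negative. Leaving out replicate 1 left 22, leaving out replicate 2 left 19 and leaving out replicate 3 left 129, and with slide as a fixed block 2 passed.

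The levels of the called probes in the 4 HC445 groups showed where each change began and ended. The 634 probes that rose had a median level of -3.88 in generation 2 after 25 °C and -2.71 in generation 3, and in the line kept at 20 °C their medians were -2.81 and -2.69. The 432 probes that fell had a median level of -2.43 after 25 °C and -3.53 in generation 3, and -3.57 and -3.60 at constant 20 °C. The levels after 25 °C thus stood apart, and the other 3 groups lay close together. Measured per probe, the difference of the 25 °C line from the 20 °C line had a median of -0.87 in generation 2 for the rising probes (interquartile range -1.35 to -0.50) and 0.05 in generation 3 (-0.11 to 0.17). For the falling probes it was 0.94 in generation 2 (0.61 to 1.42) and -0.07 in generation 3 (-0.29 to 0.08). Over all probes tested the medians were -0.08 and -0.01. These differences share arrays with the comparison that chose the probes, so they describe the levels and test nothing.

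The generation 3 mean of the returned line lay within the range of the 3 arrays of the 20 °C line for 398 of the 634 rising probes (62.8%) and for 249 of the 432 falling probes (57.6%). Over all tested probes the share was 68.9%. In generation 2 the mean after 25 °C had lain within the range of the 3 arrays of that generation at 20 °C for 29 of the rising probes (4.57%) and 7 of the falling ones (1.62%), against 48.1% of all probes. Most of the called probes thus ended within the measured range of the control line, in a share below that of all probes.

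A set of probes was also chosen by a difference between N2 groups, on arrays of the same scan days. Some of these arrays shared slides with the HC445 arrays read here. In generation 2 after 25 °C, the N2 and HC445 arrays of replicate 2 lay on 1 slide. Those of replicate 3 lay on another slide, together with the returned HC445 array of replicate 3. An effect of the slide on the choice and on the reading was not tested. HC445 arrays still entered the fit's estimate of each probe's spread, its replicate effects and the filter on dim probes. The shares called in HC445 are therefore not independent of the choice. In N2, 1293 probes (11.1%) passed limma's test for mothers at 25 °C against mothers at 20 °C in generation 2, with 526 raised (4.52%) and 767 lowered (6.59%). In HC445 itself the mothers' temperature called 1130 probes (9.71%). Of the 526 probes raised in N2, 298 (56.7%) were called lower after the return in HC445 and 0 were called higher, against 3.71% lower among all probes. Of the 767 probes lowered in N2, 429 (55.9%) were called higher after the return in HC445 and 0 were called lower, against 5.45% higher among all probes. With or without a call, 513 of the 526 and 751 of the 767 moved opposite to the N2 effect. Of all probes with a value, 38.9%, 38.6% and 50.1% were lower on return in pairs 1, 2 and 3, and 61.1%, 61.4% and 49.9% were higher. In HC445 the raised set had a median difference of 0.76 from the 20 °C line in generation 2, then a median change of -0.68 on return, and a median difference of 0.02 in generation 3. The lowered set had a median difference of -0.78, then a change of 0.80, and a difference of -0.03 in generation 3. Under normexp with quantile normalization the median of the return was again -0.68 for the raised set and was smaller, at 0.60, for the lowered set.

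Read array by array against the mean of the 6 HC445 arrays at 20 °C, the raised set had medians of 0.72, 0.76 and 0.76 on the 3 arrays after 25 °C and 0.03, 0.08 and 0.02 on the 3 arrays of generation 3. The lowered set had medians of -0.87, -0.80 and -0.77 after 25 °C and 0.04, 0.01 and -0.06 in generation 3. The arrays of the 2 generations did not overlap for either set. The 6 arrays at 20 °C ran from -0.07 to 0.07 for the raised set and from -0.09 to 0.15 for the lowered set, so every array of generation 3 after 25 °C lay within the span of the control arrays, except replicate 2 of the raised set at 0.08.

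**Figure D2:**
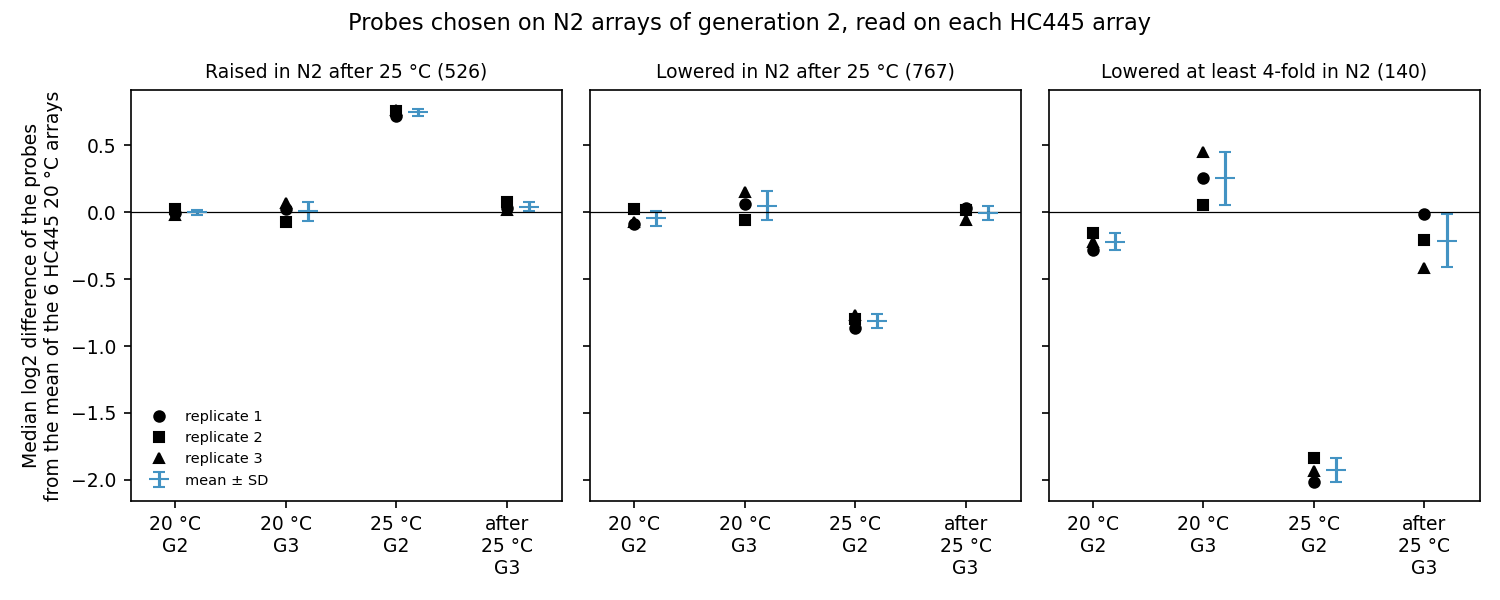
Each point is the median log2 difference, on 1 HC445 array, from the mean of the 6 HC445 arrays at 20 °C. The probes were chosen by the N2 difference of generation 2. G2 and G3 are generations 2 and 3, and the bars are the mean ± SD of 3 arrays. The arrays after 25 °C stand apart at about 0.75 ± 0.02 (raised), -0.81 ± 0.05 (lowered) and -1.93 ± 0.09 (lowered at least 4-fold), and the generation 3 arrays return to 0.04 ± 0.03, -0.00 ± 0.05 and -0.21 ± 0.20.

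The probes with the largest N2 effects were read in the same way, and the raised and lowered ones were not tested against each other. The 50 probes raised at least 4-fold in N2 had an HC445 median of 2.14 in generation 2, a change of -1.94 on return and a remaining difference of 0.09 in generation 3, and 36 of them (72.0%) were called lower. The 140 probes lowered at least 4-fold in N2 had a median of -1.68 in generation 2, a change of 1.53 on return and a remaining difference of -0.56 in generation 3, and 63 of them (45.0%) were called higher. The line kept at 20 °C had a median difference of 0.48 between the same generations for these 140 probes and 0.08 for the 50. On the 3 arrays after 25 °C the 50 raised probes had medians of 2.09, 2.16 and 2.31 against the mean of the 20 °C arrays, and on the 3 of generation 3 they had 0.34, 0.06 and 0.18. The 6 arrays at 20 °C ran from -0.11 to 0.10 for them, so replicates 1 and 3 of the returned line lay above all 6 and replicate 2 lay among them. On the 3 arrays after 25 °C these 140 probes had medians of -2.02, -1.84 and -1.93 against the mean of the 20 °C arrays, and on the 3 of generation 3 the medians were -0.01, -0.20 and -0.42. The 20 °C arrays had -0.28, -0.15 and -0.22 in generation 2 and 0.26, 0.06 and 0.45 in generation 3. The returned arrays of generation 3 therefore all lay below the 20 °C arrays of generation 3. Against the 20 °C arrays of generation 2, replicate 1 lay above, replicate 2 within and replicate 3 below their range. Across the alternative settings, the median difference left in generation 3 for these 140 probes ran from -0.67 to -0.30. Only 5 of the 140 passed limma's test against the 20 °C line in generation 3. Of the 140, 90 belonged to the low class of signal and 50 to the middle class. Under normexp with quantile normalization, which compresses dim signals, the median change of the 140 on return was 0.81.

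The largest changes were taken by a rule, namely the largest differences among called probes with the same sign in all 3 pairs and a signal on all 3 arrays of 1 of the groups. The 12 largest rises ran from 3.24 to 4.48 on the log2 scale with standard errors from 0.22 to 0.81, and the 12 largest falls ran from -6.17 to -3.27 with standard errors from 0.37 to 1.19. These are fitted values, and most rest on signals near background. In the dimmer of the 2 groups, 2 rises and 5 falls were above background on no array, 8 rises and 4 falls on 1 or 2 arrays, and 2 rises and 3 falls on all 3. The order among these probes is therefore not measured. All 24 also passed without the replicate block. Most were dim, with 9 of the rises and 10 of the falls in the low class. In N2 all 24 had the same sign, and 8 of the 12 rises and 8 of the 12 falls passed limma's test there. The contrast with the 20 °C line passed for 7 rises and 8 falls. None of the 24 passed against the 20 °C line in generation 3, where the rises differed from it by -1.05 to 0.90 and the falls by -1.88 to 0.26.

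WBGene00001515 had the largest fitted rise by this rule. Its signal after 25 °C was -10.35, -11.59 and -11.37 (mean -11.10 ± 0.66, SD, n = 3), above background on 1 of the 3 arrays. In generation 3 it was -6.37, -6.49 and -7.01 (mean -6.62 ± 0.34, SD, n = 3), above background on all 3. The groups did not overlap, and the returned arrays stood near the 20 °C line, which read -8.94, -6.78 and -7.19 in generation 2 and -7.54 and -6.20 in generation 3, where 1 spot was set to missing. The fitted rise was 4.48 ± 0.56 (SE), with a limma adjusted p of 4.13e-05. Since 2 of the 3 low arrays did not measure the probe, the rise was at least 9.28-fold when each of those was raised to the lowest signal called above background on its array. The fitted rise exceeded the generation difference at 20 °C by 3.77 (limma adjusted p = 0.0201), and in N2 it was 3.88 (limma adjusted p = 0.000165).

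WBGene00020276 was nearly level in the line kept at 20 °C, at -6.60, -6.81 and -6.79 in generation 2 and -6.73, -6.46 and -6.50 in generation 3. After 25 °C it read -9.95, -11.84 and -11.72, above background on 1 of 3 arrays. In generation 3 of the returned line it read -6.83, -6.97 and -7.55, slightly below each 20 °C array. Its replicate 3 value after 25 °C was the floor of that array. The fitted rise was 4.05 ± 0.59 (SE, limma adjusted p = 0.000153), and with undetected arrays raised as above it was at least 5.98-fold. The difference left in generation 3 was -0.55 with an adjusted p of 0.933, so it was not distinguishable from the 20 °C line at this precision. The fitted rise in N2 was 3.90.

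WBGene00012176 had the largest fitted fall. It was detected after 25 °C at -4.71, -7.38 and -5.32 and was not well above background on any of the 3 arrays of generation 3. Its fall is therefore given as a bound, set by the lowest signal called above background on each array. It was at least 16.6-fold lower after the return, and this bound was not tested. The limma adjusted p of 6.41e-06 belongs to the fitted difference of -6.17, which used the undetected values. In the line kept at 20 °C the probe was above background on 0 of 3 arrays in generation 2 and 1 of 3 in generation 3. A signal on all 3 arrays was thus seen in HC445 only after mothers at 25 °C. In N2 it was likewise above background on all 3 arrays after 25 °C and on 0 of the other 9.

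WBGene00001557 was even across the arrays after 25 °C, at -3.69, -3.45 and -3.64 (mean -3.59 ± 0.13, SD, n = 3). In generation 3 it was scattered at -7.62, -11.34 and -9.10 (mean -9.35 ± 1.87, SD, n = 3), above background on 2 of 3 arrays. The 20 °C line was scattered as well, from -11.37 to -7.11 in generation 2 and from -9.28 to -5.65 in generation 3. The fitted fall was -5.76 ± 1.19 (SE) with a limma adjusted p of 0.00331, and with the undetected array raised as above the fall was at least 34.3-fold. The fitted fall in N2 was -5.93. All arrays after 25 °C lay above all other HC445 arrays.

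**Figure D3:**
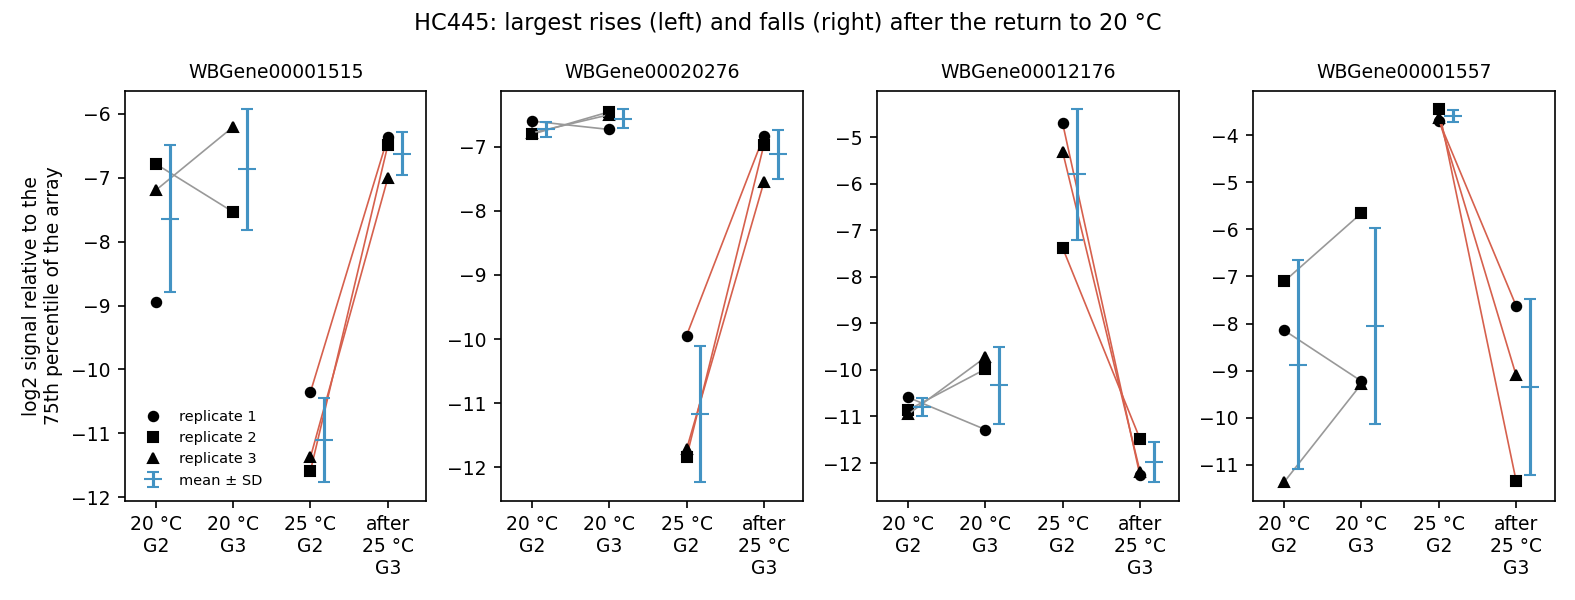
Each panel shows 1 probe, with the log2 signal, scaled to the array's 75th percentile, on the vertical axis and the 4 HC445 groups on the horizontal axis (G2 and G3 are generations 2 and 3); points are arrays, lines join the same replicate number, and bars are the mean ± SD. In all 4 panels the 3 arrays after 25 °C stand apart and the 3 returned arrays lie at or near the levels of the line kept at 20 °C.

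Against the 20 °C line of the same generation, 17 probes (0.146%) still differed in generation 3, with 3 higher and 14 lower (limma adjusted p under 0.05). Of these, 9 also passed for the return. In 4 of the 9, with 2 risen and 2 fallen, the probe was still on the side of the 20 °C line that it had taken after 25 °C. The other 5 had fallen and ended below the 20 °C line. The 4 are named here and were chosen after their values were seen.

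WBGene00019611 was close to -5.28 on every 20 °C array of generation 2 and read -0.97, -1.11 and -0.61 after 25 °C. In generation 3 it read -2.17, -3.08 and -2.67, while the 20 °C line read -5.06, -6.13 and -4.29. The returned arrays thus lay between the arrays after 25 °C and those at 20 °C, with no overlap. The fall was -1.74 ± 0.28 (SE, limma adjusted p = 0.000354), and the difference of 4.39 from the 20 °C line in generation 2 was 2.52 ± 0.28 in generation 3 (limma adjusted p = 0.000112). In N2 the return gave -1.73.

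WBGene00011398 showed the same order. It read 0.69, 1.01 and 1.41 after 25 °C and -1.25, -0.75 and -0.76 in generation 3, where the 20 °C line read -2.60, -3.05 and -2.25. The fall was -1.96 ± 0.20 (SE, limma adjusted p = 5.09e-06). The difference from the 20 °C line was 3.07 in generation 2 and 1.71 ± 0.20 in generation 3 (limma adjusted p = 0.000196). The N2 return was -2.13.

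WBGene00000703 differed from both in its values at 20 °C, which were all higher in generation 3 than in generation 2. After 25 °C it read -7.11 and -5.50, with the replicate 2 spot set to missing, and in generation 3 it read -3.89, -4.87 and -3.43. The 20 °C line read -3.01, -2.89 and -2.99 and then -1.46, -0.97 and -0.82. The rise of 2.18 ± 0.54 (SE, limma adjusted p = 0.0139) thus stood beside a difference of 1.88 ± 0.50 at constant 20 °C, which did not pass (adjusted p = 0.812 by limma), and the test of their difference was not passed (0.29 ± 0.74, adjusted p = 0.912 by limma). The deficit against the 20 °C line was -3.28 in generation 2 and -2.98 in generation 3 (limma adjusted p = 0.0134).

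WBGene00002184 read -6.91, -7.68 and -7.47 after 25 °C and -5.74, -5.70 and -6.11 in generation 3, below every 20 °C array. Its rise was 1.50 ± 0.32 (SE, limma adjusted p = 0.00424), beside a difference of 0.67 ± 0.32 at constant 20 °C that did not pass (limma adjusted p = 0.911). The test of the difference between these was not passed (0.83 ± 0.45, limma adjusted p = 0.415), so the rise was not shown to exceed the step at constant 20 °C. Its remaining deficit of -1.61 ± 0.32 passed narrowly (limma adjusted p = 0.0469) and did so in only 4 of 20 alternative settings, so it rests on the settings used here. The deficit of WBGene00000703 passed in 13 of 20. WBGene00011398 and WBGene00019611 remained above the 20 °C line, and their differences passed in 18 of 20 each.

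**Figure D4:**
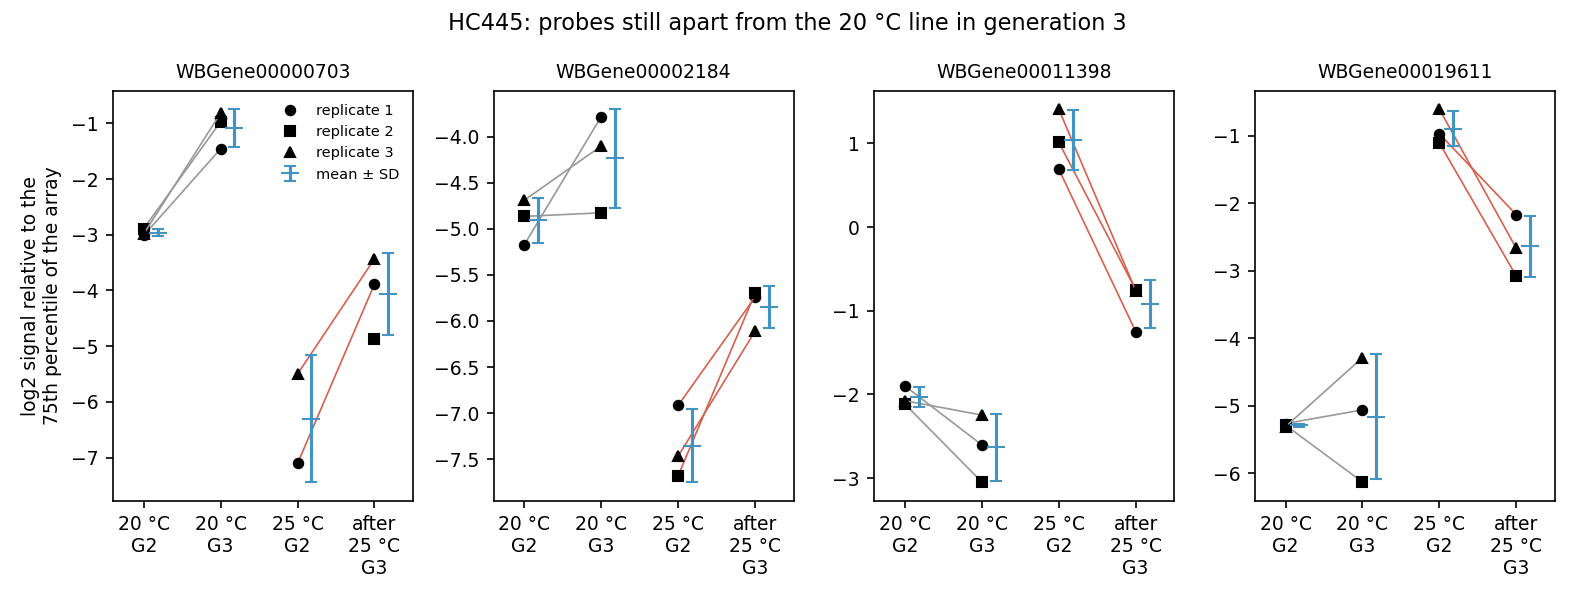
Each panel shows 1 of the 4 probes that passed both for the return and against the 20 °C line in generation 3, drawn on the same axes and with the same symbols as the plot of the largest changes. The returned arrays (far right in each panel) lie between the arrays after 25 °C and the generation 3 arrays at 20 °C, and 1 spot of WBGene00000703 after 25 °C is missing.

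The return of N2 was set beside that of HC445 on separate arrays, some of which shared slides. Both strains were tested in 1 fit with a common estimate of each probe's spread, so their calls are not independent. In N2, 1345 probes (11.6%) passed, with 595 higher (5.11%) and 750 lower (6.44%). Both strains had 739 probes in the same direction, of which 397 were higher and 342 lower, and 0 were called in opposite directions. The 739 were 69.3% of the HC445 probes and 54.9% of the N2 probes. Of the 1066 HC445 probes, 1054 had the same sign in N2, with a median of 1.00 in HC445 and 0.87 in N2 when read in the HC445 direction. Of the 1345 N2 probes, 1304 had the same sign in HC445, with a median of 0.89 in N2 and 0.70 in HC445. Pooled over directions, each strain's list thus had larger changes in the strain that chose it. By direction, the rising HC445 probes had medians of 0.98 in HC445 and 0.78 in N2. The falling HC445 probes had a median size of 1.01 in both strains. Across all tested probes the 2 returns correlated with r = 0.71 and rho = 0.66, as a description over probes that are not independent. The share of all tested probes with the same sign in both strains was not counted.

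The test of the difference between the strains called 0 probes (0.0%, limma), with 357 at an unadjusted p under 0.05 where the threshold alone gives 581.85. The difference had a median standard error of 0.36 (log2). When slide was a fixed block, 28 probes passed, all with a smaller value in HC445. Of the probes called in 1 strain alone, 327 in HC445 and 606 in N2, none was therefore shown to differ between strains.

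**Figure D5:**
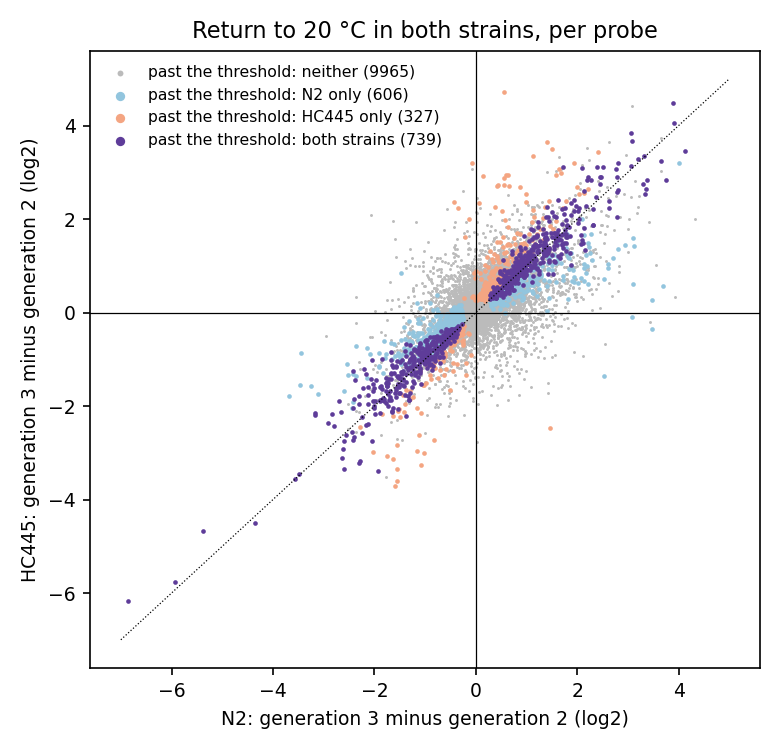
Each point is 1 of 11637 probes, with the log2 difference after the return in N2 on 1 axis and in HC445 on the other, coloured by where it was called (739 in both strains, 327 in HC445 alone, 606 in N2 alone and 9965 in neither). The points called in both strains lie along the diagonal, and none was called in opposite directions.

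Detection was counted over all 15208 probes. In the returned line 10495 probes were above background on all 3 arrays after 25 °C and 10598 in generation 3, and in the line kept at 20 °C the numbers were 9607 and 9957. In the returned line 24 probes went from none to all 3 arrays and 20 from all 3 to none. At constant 20 °C, 30 were gained and 3 were lost. The number detected on all 3 arrays was thus higher in the returned line than in the line kept at 20 °C in both generations. Array by array the lines overlapped. In generation 2 the counts were 12510, 11200 and 11423 against 10485, 10501 and 11624 at 20 °C. In generation 3 they were 11929, 11026 and 12281 against 10974, 10374 and 13075.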

How the data were processed

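The 1-colour arrays were read by the authors in Agilent's Feature Extraction (version 9.5.3.1, per the file headers), which gave a background-subtracted processed intensity and flags of 0 or 1 per spot. The deposited series table holds log2 values with the same distribution in every column (median 9.03), made by steps not given in the sources used here. Spots marked as outliers (3 to 373 per array) were set to missing, and log2 intensity minus the 75th percentile of the array was analysed. A mean for each of 8 groups and the replicate number as a block were fitted in R 4.3.3 (limma 3.58.1, lmFit and a trended eBayes), and an adjusted p under 0.05 was the threshold. Deviations from the group means correlated at 0.24, 0.20 and 0.41 between same-numbered arrays of the 2 groups and at -0.26 to -0.01 between others. Deviations within a group cancel out, so the contrast with the others is partly built in. The 0.41 is that of replicate 3, whose arrays shared a slide. The number is the scan day, so the block was kept. The highest correlation between arrays was 0.991. Named probes are the 2 largest rises and falls of the rule given in the report. The 39 gene lists drawn up use names and were not used. The fit was also run on simulated data with independent noise, a replicate effect and no slide effect. That simulation cannot show how slides affect the calls. The members and lists were chosen with earlier results of these data known. Figures were drawn with matplotlib 3.10.9.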

Additional observations from a re-analysis of the deposited data

Results flagged for a closer look

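In HC445, 357 probes changed differently between generations in the line returned from 25 °C and in the line kept at 20 °C, by limma's test of the difference itself (183 positive and 174 negative, 3.07% of 11637). The positive ones had a median change of 1.02 after the return and -0.06 at constant 20 °C, and the negative ones -1.23 and 0.27. The same arrays chose these probes, so the medians are descriptions only.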

How the results depend on the processing

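The 1066 probes of the return fell to 615 without the replicate block, 77 with slide as a fixed block (3 residual degrees of freedom) and 499 when the 6 noted arrays were dropped, rose to 1671 with array weights, and ranged from 305 to 814 when a replicate or an array was left out (437 without replicate 2, 702 without replicate 3, 686 without generation 2 replicate 2, 691 without generation 3 replicate 1). At constant 20 °C the count of 0 became 1 under normexp with quantile normalization, quantile normalization, the deposited values and slide as a fixed block. The 357 probes of the contrast became 112, 2, 61 and 662 without the block, with slide fixed, without the noted arrays and with weights, and 19 to 318 with a replicate or array left out (216 and 207 without generation 2 replicates 1 and 2 after 25 °C, 232 and 201 without generation 3 replicates 2 and 3, 230 without replicate 1 of generation 2 at 20 °C). For the N2 return the counts in that order were 691, 394, 207 and 2098 against 1345, with a range of 392 to 998 (842 without N2 generation 3 replicate 1). The strain difference gave 28 with slide fixed. The 1130 probes for mothers at 25 °C in HC445 (494 higher and 636 lower) became 591, 2 and 387 without the block, with slide fixed and without the noted arrays, with a range of 358 to 944 (646 and 667 without replicate 2 of generation 2 at 20 °C or 25 °C), and quantile normalization gave 677 higher and 477 lower. The 17 probes apart in generation 3 became 10, 1, 5 and 42, with a range of 2 to 13. With slide fixed, WBGene00001515, WBGene00012176 and WBGene00001557 missed the threshold (limma adjusted p = 0.0564, 0.0553 and 0.122), as did WBGene00001557 without the noted arrays (0.0652). The return of WBGene00000703 passed in 16 of 21 alternatives (1.35 without replicate 1) and that of WBGene00002184 in 18 of 21. The median return of the probes chosen on N2 ran from -0.73 to -0.62 (raised), 0.60 to 0.87 (lowered) and 0.81 to 1.90 (lowered at least 4-fold). The alternatives for these medians and for the 4 probes still apart in generation 3 were chosen after seeing the data. Slide as a random block (correlation within slides 0.158) left the return at 1112. The return gave 1061 probes on the 12 HC445 arrays alone and 1202 on the 6 arrays of the comparison. Fewer arrays therefore did not always lower the count. With slide fixed, 73 of the 1066 probes of the return still passed, and 1079 of the 1130 for mothers at 25 °C kept their sign. The cause of the loss of calls with slide fixed and with replicates or arrays left out was not tested. The number of arrays and the dimness of the probes with the largest changes limit the precision.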
